A study of Saccharomyces cerevisiae with 9 samples.

Results

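The peroxisome is the organelle in which Saccharomyces cerevisiae, the budding yeast, breaks down fatty acids. Peroxisomal β-oxidation shortens an activated fatty acid by a cycle of oxidation, hydration, a further oxidation and thiolysis, and its oxidase step makes hydrogen peroxide, which catalase removes. Peroxins, encoded by the PEX genes, import the enzymes into the organelle and set its membrane composition, size and number. Oxidation genes are classically repressed by glucose and switched on by fatty acids such as oleate through the paired transcription factors Oaf1 and Pip2.

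The genes described here are 38 genes of peroxisome biogenesis and fatty acid oxidation, of 5449 S. cerevisiae genes measured. They were chosen by gene symbol from a named list, and each had 1 probe set. There were 14 oxidation genes, which cover fatty acid entry, the enzymes of the cycle and the supply of cofactors. The other members were 22 PEX genes and the regulators PIP2 and OAF1. PEX11 was counted with the PEX genes.

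Yeast cultures in rich YPD broth were treated at mid-exponential phase and harvested after 180 min. Controls received ethanol alone, and treated cultures received bisphenol A (BPA), the monomer of polycarbonate plastics, in the same volume of ethanol at 50 or 300 mg/L. Each group held 3 arrays from cultures called biological replicates, so every group shared the glucose medium and the ethanol. The strain is not given in the sources used here, and neither is a batch. With no statement of how the cultures were started, p-values measure the spread between these cultures only.

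Values are log2 expression per probe set after robust multi-array averaging (RMA) by the authors, and a change is a difference of group means on that scale, so it is relative to everything else measured on an array. Errors of changes are standard errors from a limma fit over all 9 arrays, errors of levels are SDs over 3 arrays, and a gene was called when its Benjamini-Hochberg adjusted p over all genes was under 0.05. In bulk cultures, fewer cells that express a gene and less RNA per cell cannot be told apart. Background was the 95th percentile of 1746 probe sets for the fission yeast S. pombe on the same arrays, and ran from 2.05 to 2.20. Between 5363 and 5418 genes lay above it per array, and the S. cerevisiae identity genes ACT1, TDH3, PGK1, ADH1 and CDC19 were all at 12.61 or more. These 5 were all called lower at 300 mg/L against control, with changes from -0.50 to -0.16, beside 25.2% of all genes. All 38 members lay above background on 8 arrays and 36 on the other, 50 mg/L replicate 3, where POX1 and POT1 did not. The 3' minus 5' signal of the ACT1 control probe sets lay between 0.56 and 0.75 on all arrays, and between 0.60 and 0.64 on those at 300 mg/L.

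The higher dose, 300 mg/L, was set against control to ask how these genes respond to BPA. Catalase A, the start of the β-oxidation cycle and an isomerase for unsaturated fatty acids were higher, while the acyl-CoA thioesterase, the peroxisomal malate dehydrogenase and the adenine nucleotide carrier were lower. Of the 14 oxidation genes, 6 rose (CTA1, POX1, ECI1, IDP3, POT1 and PXA1), 3 fell (TES1, MDH3 and ANT1) and 5 did not pass the test. Of the 22 PEX genes, 2 rose (PEX21 and PEX25), 7 fell (PEX31, PEX5, PEX29, PEX30, PEX32, PEX15 and PEX3) and 13 did not pass.

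Among all genes, 27.5% were called higher, 25.2% lower and 52.7% in either direction, by the same test. The oxidation genes were called higher in 42.9% and lower in 21.4% of cases, and the PEX genes in 9.09% and 31.8%. All 3 arrays at 300 mg/L lay above all 3 controls for 7 oxidation and 3 PEX genes and for 35.2% of all genes, and below them for 4 oxidation and 7 PEX genes and for 32.6% of all genes. The median change was 0.09 for oxidation genes, -0.01 for PEX genes and 0.01 for all genes. The median size of a change, without its sign, was 0.46 for oxidation genes, 0.13 for PEX genes and 0.25 for all genes. These counts and medians describe the lists, and no test of one list against the other was made. After quantile normalization repeated over the 5449 genes, 4 oxidation genes were higher and 6 lower, while over all genes 1300 were higher and 1629 lower, against 1500 and 1372 as deposited.

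**Figure D1:**
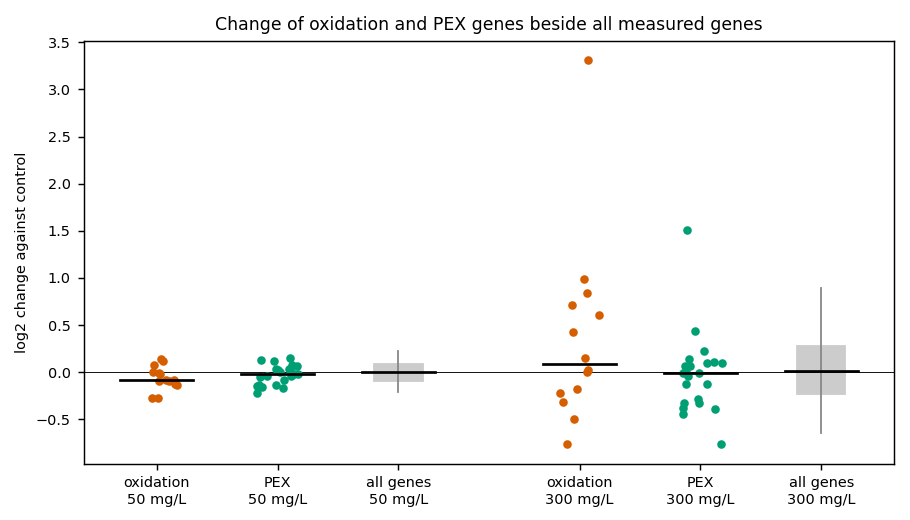
Log2 change against control of the 14 oxidation genes and 22 PEX genes (points, 1 per gene) at 50 and 300 mg/L BPA, beside all 5449 genes (box, 25th to 75th percentile; line, 5th to 95th). Black bars are medians; at 300 mg/L, CTA1 (3.31) lies above the other oxidation genes and PEX21 (1.51) above the other PEX genes.

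Fatty acids enter yeast peroxisomes either as free acids, activated inside by the acyl-CoA synthetase Faa2, or as acyl-CoA through the ABC transporter formed by Pxa1 and Pxa2. PXA1 (YPL147W) had values of 6.25, 6.24 and 6.20 in control, 6.23, 6.19 and 6.26 at 50 mg/L, and 6.79, 6.45 and 6.71 at 300 mg/L. All 3 arrays at 300 mg/L lay above the other 6. PXA1 rose by 0.42 ± 0.09, or 1.34-fold, at 300 mg/L against control (adjusted p = 0.00256, limma). Its partner PXA2 (YKL188C) had 6.02, 5.90 and 5.83 in control, 6.10, 6.03 and 5.96 at 50 mg/L, and 5.74, 5.60 and 5.87 at 300 mg/L. The 300 mg/L and control arrays overlapped for PXA2. Its change was -0.18 ± 0.09, with a 95% interval from -0.38 to 0.01 and an adjusted p of 0.1 by limma. Without 300 mg/L replicate 3, PXA2 was called lower, at -0.25 (adjusted p = 0.0473), and after repeated quantile normalization at -0.40 (adjusted p = 0.0014). Centred on hybridization spike-ins, PXA1 was higher by 0.33, with an adjusted p of 0.173.

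FAA2 (YER015W) had 5.71, 5.81 and 5.56 in control, 5.72, 5.67 and 5.67 at 50 mg/L, and 5.80, 5.63 and 5.74 at 300 mg/L. The 3 groups overlapped, and the interval of its change at 300 mg/L ran from -0.15 to 0.20. Ant1 carries ATP into the peroxisome, where Faa2 needs it. ANT1 (YPR128C) had 8.08, 8.22 and 8.25 in control, 8.05, 7.77 and 7.92 at 50 mg/L, and 7.77, 7.93 and 7.89 at 300 mg/L. Its values at both doses lay below all 3 controls. ANT1 fell by 0.32 ± 0.09 at 300 mg/L, or 1.25-fold (adjusted p = 0.0108, limma), and its change was -0.41 with an adjusted p of 0.0756 when centred on spike-ins.

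The cycle itself runs through the acyl-CoA oxidase Pox1, the multifunctional hydratase and dehydrogenase Fox2 and the thiolase Pot1. POX1 (YGL205W) had values of 2.42, 2.51 and 2.56 in control, 2.60, 2.61 and 2.01 at 50 mg/L, and 3.80, 3.08 and 3.59 at 300 mg/L. The 300 mg/L arrays lay above all others, and the 50 mg/L and control values were close to background. POX1 rose by 0.99 ± 0.19, or 1.99-fold (adjusted p = 0.00178, limma). POT1 (YIL160C) had 2.54, 2.31 and 2.45 in control, 2.58, 3.01 and 2.13 at 50 mg/L, and 3.01, 2.77 and 3.36 at 300 mg/L. Its 300 mg/L arrays lay above all controls but overlapped those at 50 mg/L. POT1 rose by 0.61 ± 0.21, or 1.52-fold (adjusted p = 0.0298, limma). Without control replicate 2 or 3, or without 300 mg/L replicate 1 or 3, the adjusted p of POT1 was 0.0925, 0.0607, 0.0614 and 0.111.

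Other dim genes moved the same way. Of 263 genes with a control level below 4, 66.2% were called higher at 300 mg/L, with a median change of 0.58. POX1, POT1 and CTA1 are among these genes. The change of POT1, 0.61, lay close to that median, while those of POX1, 0.99, and CTA1, 3.31, lay above it. After repeated quantile normalization POX1 was higher by 0.32 (adjusted p = 0.177) and POT1 changed by -0.11 (adjusted p = 0.672). The part of the level in the changes of POX1 and POT1 was not tested.

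FOX2 (YKR009C) was well above background, with 7.07, 6.97 and 6.95 in control, 6.999, 6.79 and 6.95 at 50 mg/L, and 7.19, 7.16 and 7.09 at 300 mg/L. The 300 mg/L arrays lay narrowly above all others. Its difference from control was 0.15 ± 0.07, with a 95% interval from -0.01 to 0.32 (adjusted p = 0.11, limma). FOX2 was called without 50 mg/L replicate 2 (adjusted p = 0.0413), with S. pombe centring (adjusted p = 0.044) and with array weights (adjusted p = 0.017).

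Cta1, catalase A, breaks down the hydrogen peroxide that Pox1 makes, and CTA1 had the largest change of the 38 members. CTA1 (YDR256C) had values of 3.84, 3.67 and 3.61 in control, 3.93, 3.73 and 3.71 at 50 mg/L, and 7.55, 6.08 and 7.44 at 300 mg/L. The lowest array at 300 mg/L was above every control and 50 mg/L array by more than the spread within those groups. CTA1 averaged 7.02 ± 0.82 at 300 mg/L and 3.71 ± 0.12 in control (SD, n = 3 arrays each), a rise of 3.31 ± 0.31 or 9.93-fold (adjusted p = 2.36e-05, limma). Its change also lay above the 99th percentile of all genes, which was 2.02. CTA1 kept its call and its direction under all 20 alternatives run, with changes from 3.05 to 3.78.

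Unsaturated fatty acids need auxiliary enzymes before the cycle can finish them. ECI1 (YLR284C) encodes the enoyl-CoA isomerase that moves a double bond. ECI1 had values of 6.40, 6.35 and 6.26 in control, 6.24, 6.12 and 6.25 at 50 mg/L, and 7.19, 7.19 and 7.14 at 300 mg/L. The arrays at 300 mg/L agreed closely and lay above all others. ECI1 rose by 0.84 ± 0.07, or 1.79-fold (adjusted p = 9.16e-06, limma). DCI1 (YOR180C), which encodes a related protein, had 5.92, 5.91 and 5.66 in control, 5.77, 5.36 and 5.54 at 50 mg/L, and 5.73, 5.88 and 5.89 at 300 mg/L. Its 300 mg/L arrays lay within the range of the controls, and the interval of its change ran from -0.24 to 0.25.

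SPS19 (YNL202W) encodes the dienoyl-CoA reductase, which uses NADPH. SPS19 had 5.58, 5.50 and 5.26 in control, 5.67, 5.25 and 5.16 at 50 mg/L, and 5.23, 5.24 and 5.21 at 300 mg/L. Its 300 mg/L arrays lay narrowly below all controls, a difference of -0.22 ± 0.13 (adjusted p = 0.176, limma). After repeated quantile normalization SPS19 was lower, at -0.58 with an adjusted p of 0.0019.

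Idp3, the peroxisomal isocitrate dehydrogenase, makes NADPH for that reductase, and Mdh3, the peroxisomal malate dehydrogenase, reoxidizes the NADH that Fox2 makes. IDP3 (YNL009W) had 5.46, 5.48 and 5.26 in control, 5.35, 5.26 and 5.54 at 50 mg/L, and 6.03, 5.78 and 6.51 at 300 mg/L. It rose by 0.71 ± 0.16, or 1.63-fold (adjusted p = 0.00421, limma), with all 300 mg/L arrays above the other 6. Its control level lies between 4 and 6, where 44.9% of 425 genes were called higher and the median change was 0.21. MDH3 (YDL078C) had 10.05, 10.06 and 9.98 in control, 10.07, 9.68 and 9.96 at 50 mg/L, and 9.48, 9.47 and 9.65 at 300 mg/L. MDH3 fell by 0.49 ± 0.10, or 1.41-fold (adjusted p = 0.00231, limma), and its 300 mg/L arrays lay below the other 6. Its control level, like that of ANT1, was 8 or above, where 30.8% of 2763 genes were called lower and the median change was -0.04. IDP3 and MDH3, the 2 genes of cofactor supply, thus moved in opposite directions.

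TES1 (YJR019C) encodes the thioesterase that releases free fatty acid and coenzyme A from acyl-CoA. TES1 had values of 7.13, 6.84 and 6.79 in control, 6.93, 6.73 and 6.84 at 50 mg/L, and 5.997, 6.11 and 6.36 at 300 mg/L. The groups at 300 mg/L and in control did not overlap. TES1 fell by 0.77 ± 0.11, or 1.70-fold (adjusted p = 0.000395, limma).

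**Figure D2:**
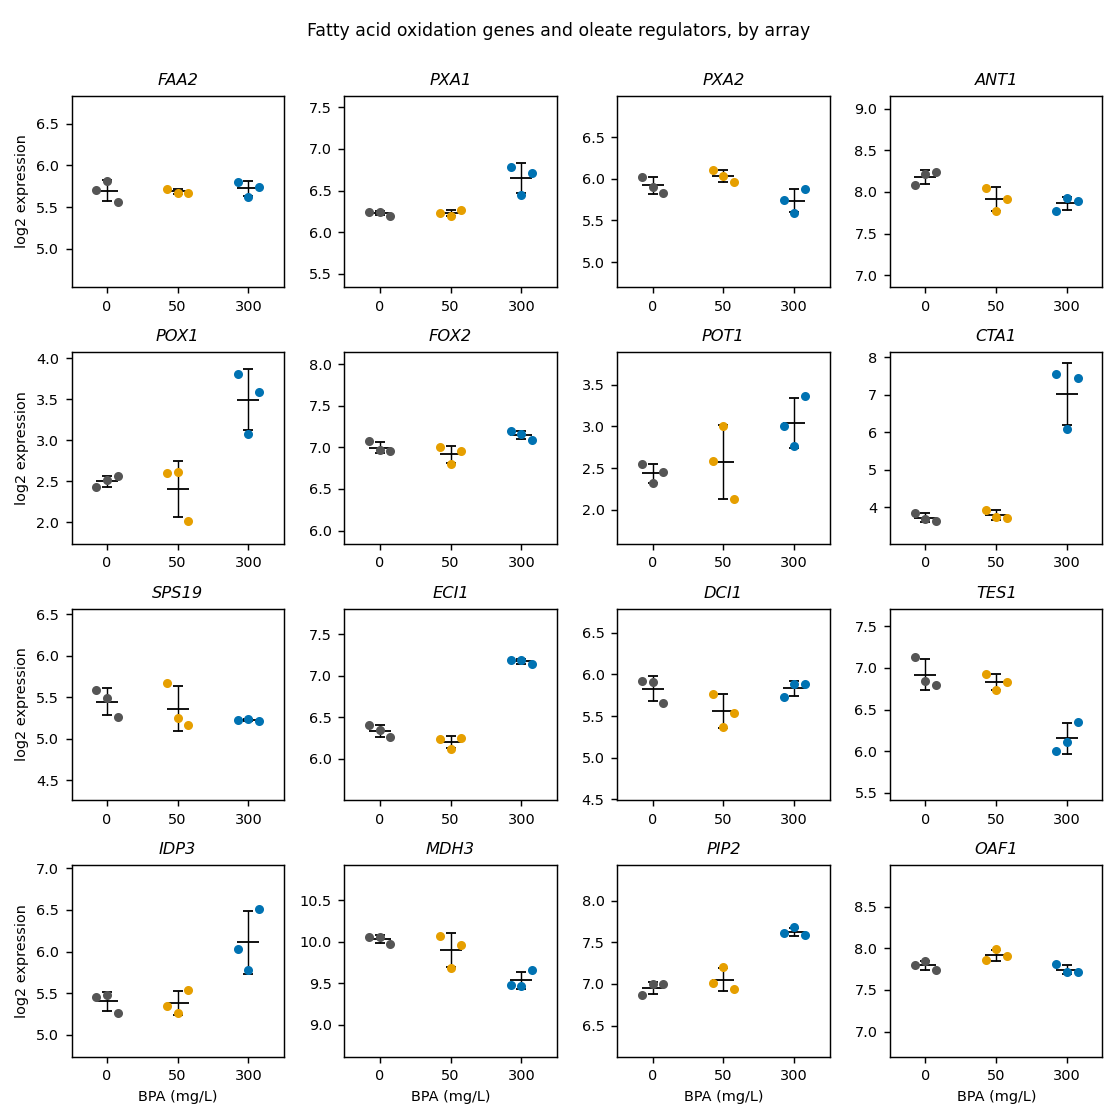
Log2 expression of the 14 oxidation genes and the regulators PIP2 and OAF1 on each array (points) at 0, 50 and 300 mg/L BPA, with mean and SD over 3 arrays. Each panel has its own scale, wider for CTA1. The 300 mg/L arrays of CTA1, POX1, ECI1, IDP3, PXA1 and PIP2 lie above the other 6, and those of TES1 and MDH3 below. Those of FOX2, which was not called against control, also lie narrowly above.

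Pip2 and Oaf1 act as a pair on oleate response elements, and Pip2 is itself a target of the pair. PIP2 (YOR363C) had values of 6.87, 6.99 and 6.99 in control, 7.01, 7.20 and 6.94 at 50 mg/L, and 7.61, 7.68 and 7.59 at 300 mg/L. OAF1 (YAL051W) had 7.79, 7.85 and 7.74 in control, 7.85, 7.99 and 7.91 at 50 mg/L, and 7.81, 7.71 and 7.71 at 300 mg/L. The 300 mg/L arrays stood clear of the others for PIP2 and overlapped the controls for OAF1. PIP2 rose by 0.68 ± 0.08, or 1.60-fold (adjusted p = 0.000107, limma), while the change of OAF1 was -0.05 ± 0.07, with an interval from -0.20 to 0.10.

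Several of these genes have a close partner, which allowed a comparison within each array. Such a difference does not depend on how an array is centred. PXA1 minus PXA2 averaged 0.91 ± 0.12 at 300 mg/L and 0.31 ± 0.08 in control. ECI1 minus DCI1 averaged 1.34 ± 0.10 at 300 mg/L and 0.51 ± 0.09 in control. PIP2 minus OAF1 averaged -0.12 ± 0.09 at 300 mg/L and -0.84 ± 0.09 in control (SD, n = 3 arrays each). The 300 mg/L and control arrays did not overlap in any of these 3 differences. For each, the two-sided exact permutation p was 0.1, the smallest that 3 arrays against 3 allow, and 0.1 after adjustment over the 4 pairs compared. The pairs were chosen after the values had been seen. Without overlap this p can only be 0.1, so it adds no support, and these differences are a description.

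The oxidation genes that rose differed between cultures at 300 mg/L. Replicate 2 was the lowest of the 3 arrays for 5 of the 6 (CTA1, POX1, IDP3, POT1 and PXA1), and ECI1 was the exception. Among all 1500 genes called higher, replicate 2 was the lowest for 33.7%. CTA1 stood 2.37 above its control mean on that array, against 3.84 and 3.73 on the other two. ADR1, the transcription factor that relieves glucose repression of oxidation genes and no member of the list, stood 0.52 above its control mean on replicate 2 and 1.14 and 1.07 on the others. It was picked from 9 regulators outside the members. The member regulator PIP2 was instead highest on replicate 2, at 7.68 against 7.61 and 7.59. A link between either regulator and the oxidation genes was not tested. Without 300 mg/L replicate 2, CTA1 was higher by 3.78, POX1 by 1.20, IDP3 by 0.87, POT1 by 0.75 and PXA1 by 0.52, all still called. The counts remained 6 higher and 3 lower for oxidation genes and 2 higher and 7 lower for PEX genes.

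**Figure D3:**
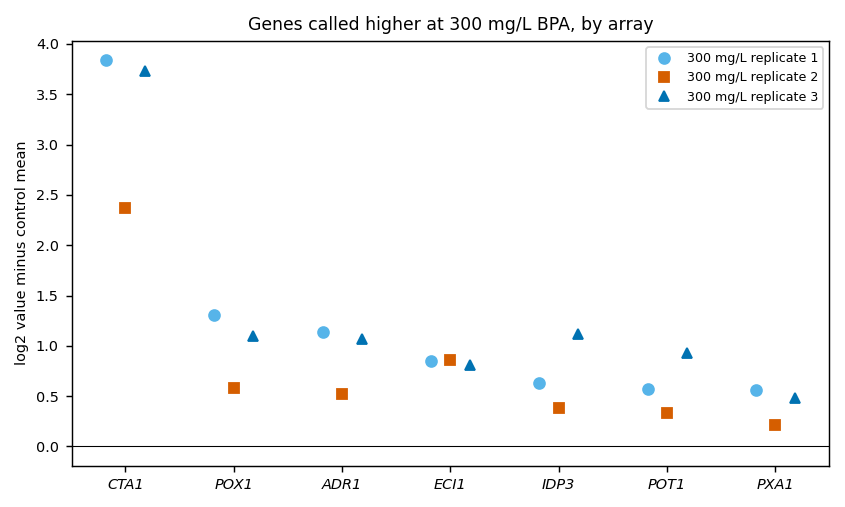
Log2 value minus the control mean on each of the 3 arrays at 300 mg/L BPA, for the 6 oxidation genes called higher and for ADR1. Replicate 2 (squares) is the lowest for every gene shown except ECI1.

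Enzymes reach the peroxisome through receptors. Pex5 recognizes the common carboxy-terminal signal and Pex7 a second, amino-terminal one, for which it needs the co-receptor Pex18 or Pex21. PEX21 (YGR239C) had values of 5.41, 5.15 and 5.37 in control, 5.36, 5.20 and 5.43 at 50 mg/L, and 6.69, 6.93 and 6.84 at 300 mg/L. It stood apart from the other PEX genes, with a rise of 1.51 ± 0.10 or 2.85-fold (adjusted p = 2.69e-06, limma), and kept its call under all 20 alternatives run. PEX5 (YDR244W) had 7.19, 7.22 and 7.20 in control, 7.26, 7.44 and 7.14 at 50 mg/L, and 6.68, 6.91 and 6.69 at 300 mg/L. Its 300 mg/L arrays lay below all others. PEX5 fell by 0.45 ± 0.09, or 1.36-fold (adjusted p = 0.00244, limma), while the interval for PEX7 ran from -0.16 to 0.15.

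PEX18, no member of the list, changed by 0.00 ± 0.11, with an interval from -0.24 to 0.24. PEX21 minus PEX18 within an array averaged 3.17 ± 0.22 at 300 mg/L and 1.66 ± 0.30 in control (SD, n = 3 arrays each), with an exact permutation p of 0.1, the fourth of the pairs above. This pair too was chosen after its values were seen, so its p carries the same limit. PEX21 has a control level between 4 and 6, as IDP3 does.

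Of 9 genes of the import machinery behind the receptors, 1 was called, beside 52.7% of all genes. None of the 3 docking genes, PEX13, PEX14 and PEX17, passed the test at 300 mg/L, with changes from -0.13 to 0.14, though PEX17 was called lower after repeated quantile normalization, at -0.33 (adjusted p = 0.0147), and PEX14 with array weights, at -0.14 (adjusted p = 0.0421). Neither did PEX2 and PEX10, which encode RING ubiquitin ligases, at 0.22 and 0.07 (PEX2 had an adjusted p of 0.0239 with array weights), nor PEX8, which links docking and ligase complexes, at 0.10. For receptor recycling, PEX15, the membrane anchor of the AAA ATPase Pex6, fell by 0.32 ± 0.08 (adjusted p = 0.0081, limma). PEX6 itself changed by -0.04 and PEX4, the ubiquitin-conjugating enzyme, by 0.10, and neither passed.

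Membrane proteins of the peroxisome are inserted by Pex3 and Pex19. PEX3 fell by 0.28 ± 0.07 (adjusted p = 0.00544, limma), and the interval for PEX19 ran from -0.08 to 0.20. Of the related genes PEX11, PEX25 and PEX27, which promote proliferation and division of the organelle, PEX25 alone was called. PEX25 (YPL112C) had values of 7.92, 8.11 and 8.06 in control, 8.09, 8.27 and 8.09 at 50 mg/L, and 8.52, 8.42 and 8.46 at 300 mg/L. The 300 mg/L arrays lay above the other 6, a rise of 0.44 ± 0.08 or 1.35-fold (adjusted p = 0.00105, limma). PEX11, an oleate-responsive gene, changed by -0.01 ± 0.06, with an interval from -0.15 to 0.14, and PEX27 by 0.10 ± 0.11. Centred on spike-ins, PEX25, PEX3, PEX15 and PEX32 were not called, with adjusted p of 0.149, 0.115, 0.0735 and 0.0671.

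Pex28 to Pex32 are membrane proteins that control peroxisome size and number. Of PEX28, PEX29, PEX30, PEX31 and PEX32, 4 fell, beside 25.2% of all genes called lower, and PEX28 did not pass, at -0.01 ± 0.08. PEX31 (YGR004W) had values of 7.76, 7.63 and 7.59 in control, 7.54, 7.43 and 7.58 at 50 mg/L, and 6.85, 6.94 and 6.90 at 300 mg/L. It fell by 0.76 ± 0.07, or 1.70-fold (adjusted p = 2.6e-05, limma), with no overlap between groups. PEX29 (YDR479C) had 7.48, 7.38 and 7.25 in control, 7.55, 7.41 and 7.24 at 50 mg/L, and 6.99, 7.002 and 6.97 at 300 mg/L. PEX29 fell by 0.39 ± 0.09, PEX30 by 0.38 ± 0.07 and PEX32 by 0.33 ± 0.09. All 4 had 300 mg/L arrays below every control, as 32.6% of all genes did.

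**Figure D4:**
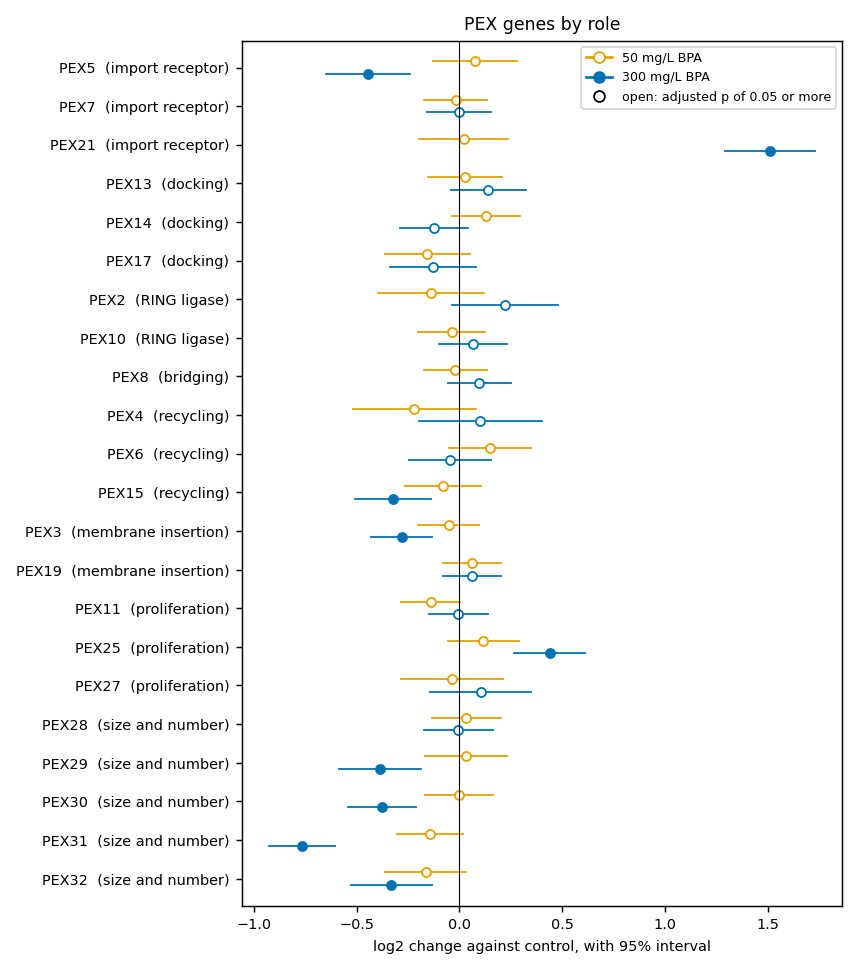
Log2 change against control of the 22 PEX genes at 50 and 300 mg/L BPA, with 95% intervals from limma, grouped by role; filled points had an adjusted p under 0.05. PEX21 and PEX25 lie to the right at 300 mg/L, 4 of the 5 genes of size and number to the left, and no gene is called at 50 mg/L. Of all genes, 27.5% were called higher and 25.2% lower at 300 mg/L.

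The lower dose, 50 mg/L, was set against control to ask whether it moved the same genes. None of the 38 members was called by limma, nor was any of the 5449 genes (0%), and the members' smallest adjusted p was 0.581. At an unadjusted p under 0.05 there were 2 of the 38 members, ANT1 and DCI1, beside 389 of all 5449 genes. ANT1 differed by -0.27 ± 0.09, with an interval from -0.46 to -0.08, and DCI1 by -0.27 ± 0.11, with an interval from -0.52 to -0.02. CTA1 differed by 0.08 ± 0.31, and its interval, from -0.61 to 0.76, was the widest. The median 95% interval over the members reached 0.19 to either side of the difference, in a fit that did not pair arrays by replicate number.

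All 3 arrays at 50 mg/L lay above or below all 3 controls for 5 members. OAF1 was on the higher side, as were 6.06% of all genes, and ECI1, ANT1, PEX11 and PEX31 on the lower side, as were 6.5% of all genes. The median change at 50 mg/L was -0.08 for oxidation genes, -0.02 for PEX genes and 0.00 for all genes. Of the 14 oxidation genes 10 had a negative difference, of the 22 PEX genes 13, and of all genes 2782.

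The comparison of 300 with 50 mg/L BPA tests the difference between the doses and shares its 300 mg/L arrays with the comparison against control. Here 27.5% of all genes were higher, 25.3% lower and 52.8% called in either direction, and 30.9% lay above and 28.8% below all 50 mg/L arrays without overlap. Of the oxidation genes 6 were higher, CTA1, POX1, ECI1, IDP3, PXA1 and FOX2, and 3 lower, TES1, MDH3 and PXA2. CTA1 was higher by 3.23 ± 0.31, ECI1 by 0.97 ± 0.07 and POX1 by 1.09 ± 0.19, with adjusted p of 2.75e-05, 3.64e-06 and 0.00107 by limma. On 50 mg/L replicate 3 POX1 lay below background, so its level in that group is a bound on 1 of 3 arrays, and after repeated quantile normalization its difference was 0.39 (adjusted p = 0.0979).

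FOX2 was higher by 0.23 ± 0.07 (adjusted p = 0.0225, limma) and PXA2 lower, at -0.30 ± 0.09 (adjusted p = 0.0153, limma). POT1 did not pass, at 0.47 ± 0.21 (adjusted p = 0.0764, limma), but was called without 50 mg/L replicate 2 or 300 mg/L replicate 2 (adjusted p = 0.0128 and 0.0439). Over the 11 alternatives of processing its difference ran from -0.275 to 0.906, and 2 of these called it. Like POX1, POT1 lay below background on 50 mg/L replicate 3. FOX2 missed the threshold without 300 mg/L replicate 1 or 2 (adjusted p = 0.0788 and 0.0547), with the replicate number as a block over the 6 arrays (adjusted p = 0.0787) and with spike-in centring (adjusted p = 0.335), and PXA2 without replicate 2 (adjusted p = 0.0584) and with spike-in centring (adjusted p = 0.267). ANT1 did not differ between the doses beyond its error, at -0.05 ± 0.09 with an interval from -0.24 to 0.14. PIP2 was higher by 0.58 ± 0.08 (adjusted p = 0.000262, limma).

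Of the PEX genes 3 were higher at 300 than at 50 mg/L, PEX21 by 1.49 ± 0.10, PEX2 by 0.36 ± 0.12 and PEX25 by 0.32 ± 0.08. Another 7 were lower, led by PEX31, at -0.62 ± 0.07, and PEX5, at -0.52 ± 0.09. The others were PEX29, PEX30, PEX14, PEX15 and PEX3. Without 300 mg/L replicate 1, 4 PEX genes were lower, with PEX3, PEX14 and PEX15 no longer called (adjusted p from 0.0565 to 0.101). PEX14 and PEX15 were not called without 300 mg/L replicate 3 either (adjusted p = 0.068 and 0.0832), nor PEX15 without 50 mg/L replicate 1 or 3 (adjusted p = 0.0806 and 0.106). PEX2 was not called without 50 mg/L replicate 2 or 3 or without 300 mg/L replicate 3 (adjusted p = 0.0761, 0.0567 and 0.0949). Among the 3 groups, the limma F test found a difference for 9 of 14 oxidation genes, 10 of 22 PEX genes and PIP2, and for 52.9% of all genes.

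Other genes of the peroxisome, taken from lists outside the 38 members, gave context for 300 mg/L against control. In that comparison 27.5% of all genes were called higher, 25.2% lower and 52.7% in either direction. Of 10 further genes of peroxin function, inheritance and division, 1 rose, PEX34, by 0.37 ± 0.07, and 3 fell. DNM1, a dynamin of organelle fission, fell by 0.46 ± 0.06. INP2, which tethers peroxisomes to myosin for inheritance, fell by 0.42 ± 0.10, and VPS1, another dynamin, also fell. The count called higher was 2 without 50 mg/L replicate 2 or with only the 6 arrays compared, and 0 with spike-in centring. Of 13 other enzymes found in peroxisomes 3 rose and 7 fell. STR3, a cystathionine lyase, rose by 1.01 ± 0.15 and GTO1, a glutathione transferase, by 0.57 ± 0.08, while GPD1, a glycerol 3-phosphate dehydrogenase, fell by 1.10 ± 0.15 and PNC1, a nicotinamidase, by 1.05 ± 0.15.

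Acetyl units leave the peroxisome partly as acetylcarnitine. Of 6 genes of this shuttle 4 rose and 1 fell. For this and the later lists, 27.5% of all genes were called higher and 25.2% lower. The count of the shuttle called higher was 2 without control replicate 2 or 3, without 300 mg/L replicate 2 or 3, or with spike-in centring. The carnitine acetyltransferase genes YAT1 and YAT2 rose by 0.74 ± 0.08 and 0.63 ± 0.06, AGP2, of carnitine uptake, fell by 0.51 ± 0.12, and CAT2, which encodes the enzyme of peroxisomes and mitochondria, changed by -0.02 ± 0.08. Of 9 regulators outside the members 2 rose and 1 fell. ADR1 rose by 0.91 ± 0.16, or 1.88-fold, and the meiotic factor NDT80 by 0.77 ± 0.10, while SNF1, the kinase of glucose derepression, fell by 0.49 ± 0.09. Of 8 genes of fatty acid activation and synthesis outside the peroxisome 1 rose and 2 fell. The acyl-CoA synthetase gene FAA3 rose by 0.20 ± 0.06, a call lost without control replicate 1 or 2 or 300 mg/L replicate 1. The call was also lost after repeated quantile normalization and with spike-in centring. FAA1 fell by 1.06 ± 0.07, and FAT1, of fatty acid uptake and very long chain activation, fell by 0.83 ± 0.08. Adjusted p for the genes named here as rising or falling ran from 3.59e-06 for FAA1 to 0.0217 for FAA3 by limma.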

How the data were processed

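The authors deposited their expression data as log2 values for each probe set. RMA, affy and limma were used, per the submitters' processing notes, with no versions given. RMA equalizes probe intensity distributions between arrays, so changes are relative and carry no measure of total mRNA. Of 10928 probe sets, 5498 matched an S. cerevisiae gene of the R64 RefSeq table by gene identifier. Where a gene had more than 1 probe set (47 genes, no member), the brightest on average was used.

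limma 3.58.1 under R 4.3.3 fitted a mean per group (lmFit and eBayes, two-sided, 6 residual degrees of freedom before moderation), with Benjamini-Hochberg adjustment over 5449 genes. The pipeline was run on simulated data with independent noise and few changed genes, balanced in direction. In the real data 52.7% of genes were called at 300 mg/L, so that run does not show how well these calls hold. Figures used matplotlib 3.10.9. Precision is limited by the number of arrays. The members and lists were chosen with earlier results of these data known. Array values are given for the oxidation genes, regulators and the 3 largest rises and falls of PEX genes called (2 rises existed). From other lists, the 2 largest rises and falls called are named; VPS1 and CAT2 were added after seeing values.

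Same-numbered arrays deviated together for control and 50 mg/L, with correlations from 0.19 to 0.42. Arrays of different number in these groups correlated from -0.43 to 0.18, and the labels state no pairing. The reported fit did not pair arrays by number, which entered only in alternatives with the replicate number as a block. For 300 mg/L the correlations ran from -0.34 to 0.09 with control and from -0.26 to 0.16 with 50 mg/L. Alternatives were other scalings, filters, weights, fits with the replicate number as a block, and each array left out.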

Additional observations from a re-analysis of the deposited data

How the results depend on the processing

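With 20 alternative fits per comparison, the 38 members' results stayed on their side of the threshold and kept any called direction in 738 of 760 cases for 300 mg/L against control, 760 of 760 for 50 mg/L against control and 707 of 760 for 300 against 50 mg/L. Quantile normalization run again over these genes gave, at 300 mg/L against control, 6 oxidation genes lower and medians of -0.164 for oxidation and -0.0928 for PEX genes. It turned POT1 to -0.11 (adjusted p = 0.672), and FAA2 was lower, at -0.22 (adjusted p = 0.0183). Spike-in centring, which moved the median of all genes to -0.08 at 300 mg/L and -0.11 at 50 mg/L against control, gave 1 PEX gene higher, 4 lower and a PEX median of -0.10, beside 678 genes higher and 875 lower of all genes, against 1500 and 1372 as deposited. At 50 mg/L it gave a PEX median of -0.13. For 300 against 50 mg/L, quantile normalization gave 5 oxidation genes lower, medians of -0.0166 and -0.0883, and FAA2 at -0.23 (adjusted p = 0.0164). Over all genes 1311 were then higher and 1612 lower, against 1497 and 1381 as deposited. S. pombe centring and array weights each gave 5 PEX genes higher. Of all genes, S. pombe centring gave 1688 higher and 1193 lower, and array weights 1759 and 1771. Spike-in centring gave 1 oxidation gene lower, 1 PEX gene higher and 2 lower, beside 877 genes higher and 551 lower of all genes. With 1 array left out, oxidation genes higher ran from 5 to 7 in both 300 mg/L comparisons, and PEX genes lower from 4 to 8 for 300 against 50 mg/L. Of all genes, those higher then ran from 1242 to 1726 against control. Against 50 mg/L they ran from 1279 to 1539, and those lower from 1129 to 1459. The cause was not tested. With PEX11 counted among oxidation genes, their counts at 300 mg/L against control were again 6 and 3.

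With the replicate number as a block, no member was called at 50 mg/L, where same-numbered arrays deviated together, and the block changed no call at 300 mg/L against control. For 300 against 50 mg/L, where they did not all do so, the block over 6 arrays gave 4 PEX genes lower and FOX2 was not called (adjusted p = 0.0787). Values near background, as for POX1 and POT1, limit the size of change that can be read.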
